A study of Homo sapiens with 2 samples.

Results

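The ZIP proteins are the zinc importers of the SLC39 family. They carry zinc, and in some cases iron, manganese or cadmium, into the cytosol from outside the cell or from organelles such as the endoplasmic reticulum and the Golgi. The ZnT proteins of the SLC30 family move zinc the opposite way, metallothioneins bind it in the cytosol, and the transcription factor MTF1 senses it. MTF1 switches on metallothionein genes and the exporter gene *SLC30A1* when zinc is plentiful. Here 10 ZIP genes (*SLC39A1*, *SLC39A5*, *SLC39A6*, *SLC39A7*, *SLC39A8*, *SLC39A9*, *SLC39A10*, *SLC39A11*, *SLC39A13* and *SLC39A14*) of the 17687 genes named on the array were described. They were selected on their family name with their signals and differences on these arrays already known, so their values are a description.

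VMRC-LCD is a human lung adenocarcinoma line with neuroendocrine differentiation, and its cells were compared after transfection with a negative control siRNA (si-NC) or with siRNA no2 against the lncRNA *DRAIC* (si-DRAIC2). Both siRNAs were used at 20 nmol/L and the cells were incubated for 72 h, in medium with fetal calf serum. Each condition was measured on 1 Human Clariom S array, so the differences have no replicate error and no p-values are printed. A siRNA can act on transcripts other than its target, and with 1 targeting siRNA such effects cannot be told apart from loss of *DRAIC*. In bulk RNA, less RNA per cell and fewer cells with that RNA cannot be told apart either.

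The deposited values are log2 signals per transcript cluster, and differences are given as si-DRAIC2 minus si-NC on that scale. Over all 21448 transcript clusters the median difference was −0.011 with an SD of 0.38. No cluster was paired with *DRAIC* in the annotation used here, so the knockdown was not checked on these arrays. The study measured *DRAIC* separately by RT-qPCR. The level of genes presumed silent was gauged on 497 genes such as olfactory receptors, of which 95% had a mean log2 signal at or below 6.06. The labelled cell type was checked on marker genes. *EPCAM*, *KRT8*, *KRT18* and *CDH1* of epithelial cells and *CHGA*, *CHGB*, *SYP*, *INSM1* and *NCAM1* of neuroendocrine cells lay above that level. Of the markers of other cell types, the leukocyte genes *PTPRC* and *CD3E*, the endothelial genes *PECAM1*, *VWF* and *CDH5* and the fibroblast genes *COL1A1* and *DCN* were not above it. *LUM* (10.46 and 10.91 in si-NC and si-DRAIC2), *COL1A2* (8.73 and 8.40) and *CD68* (11.18 and 11.23) were above it, and their part in the results was not tested.

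*SLC39A1*, *SLC39A5* and *SLC39A6* differed by more than 1.5-fold between the arrays, the threshold of the study's methods, and the other 7 members lay within it. For these genes the promoter sequences are shown, because they are the members past the threshold. The letters in capitals are the core of the metal response element, to which MTF1 binds, searched as TGCACNC or TGCGCNC on both strands. The promoter of the metallothionein gene *MT2A*, which was measured with nearly the same signal on both arrays, is shown for comparison. Each sequence runs 5′ to 3′ on the gene's strand from 250 bases before to 30 bases after the RefSeq start (GRCh38.p14), at chr1:153963508-153963787 (minus strand), chr12:56230467-56230746 (plus), chr18:36129311-36129590 (minus) and chr16:56608334-56608613 (plus) in the order printed.
SLC39A1: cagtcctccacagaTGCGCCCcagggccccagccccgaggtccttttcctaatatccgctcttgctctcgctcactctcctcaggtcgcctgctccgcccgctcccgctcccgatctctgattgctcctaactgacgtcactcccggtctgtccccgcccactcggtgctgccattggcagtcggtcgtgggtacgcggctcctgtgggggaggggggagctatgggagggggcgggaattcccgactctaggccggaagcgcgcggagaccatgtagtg
SLC39A5: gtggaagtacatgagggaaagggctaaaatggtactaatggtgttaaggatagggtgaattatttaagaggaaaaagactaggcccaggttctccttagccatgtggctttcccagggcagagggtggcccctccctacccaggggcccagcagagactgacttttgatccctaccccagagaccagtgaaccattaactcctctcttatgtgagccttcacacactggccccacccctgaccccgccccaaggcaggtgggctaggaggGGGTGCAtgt
SLC39A6: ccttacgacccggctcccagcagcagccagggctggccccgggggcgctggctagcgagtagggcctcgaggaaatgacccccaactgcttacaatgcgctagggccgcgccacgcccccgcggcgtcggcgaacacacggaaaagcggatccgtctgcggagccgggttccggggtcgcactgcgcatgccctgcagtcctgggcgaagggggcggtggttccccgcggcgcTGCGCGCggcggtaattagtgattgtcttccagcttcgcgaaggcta
MT2A: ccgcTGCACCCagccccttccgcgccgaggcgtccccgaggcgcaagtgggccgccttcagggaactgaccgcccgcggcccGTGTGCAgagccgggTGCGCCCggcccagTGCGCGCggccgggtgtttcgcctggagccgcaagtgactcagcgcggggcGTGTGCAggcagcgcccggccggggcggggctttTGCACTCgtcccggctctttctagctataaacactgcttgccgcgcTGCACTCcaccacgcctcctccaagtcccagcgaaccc

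The 280 bases shown held 1 match each for the ZIP genes and 7 for *MT2A*. The match of *SLC39A1* begins 236 bases before the start, that of *SLC39A6* 17 bases before it, and that of *SLC39A5*, on the opposite strand, at base 21 after it. RefSeq gives *SLC39A1* and *SLC39A5* a second window of 300 bases each, in which the letters were not found. Matches of so short a motif are common. Of 35116 promoter windows of 300 bases, 29.6% held at least 1, and 0.601% held at least 4. Of the 9 members with a window, 6 held a match in at least 1 of theirs, against 33.4% of the 27305 genes with a window, and some members have 2 or 3 windows. All 5 metallothionein genes with a window held matches, with up to 8 in *MT2A* and *MT1H*. A match is a string of letters and was not tested as a binding site.

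Among importers of the plasma membrane, *SLC39A5* showed the largest difference of the 10 members. Its product ZIP5 lies on the basolateral side of polarized epithelial cells such as those of gut and pancreas. The log2 signal of *SLC39A5* was 10.38 with si-NC and 9.25 with si-DRAIC2, a difference of −1.13 or 2.18-fold lower. Of all named genes, 0.481% had a lower difference, and so did 8 of the 1458 genes whose mean signal lies within 0.5 log2 units of it. *SLC39A6* encodes ZIP6 (LIV-1), an estrogen-regulated importer of breast cancer cells. Its log2 signal was 11.52 with si-NC and 10.91 with si-DRAIC2, a difference of −0.61 or 1.53-fold lower. This lies close to the threshold of 1.5-fold, which is a log2 difference of 0.585. In the range of signal around *SLC39A6*, 43 of 1466 genes had a lower difference.

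*SLC39A1* went the other way. It encodes ZIP1, a widely expressed importer of the plasma membrane that takes up zinc in prostate cells. Its log2 signal was 7.80 with si-NC and 8.65 with si-DRAIC2, a difference of 0.85 or 1.80-fold higher. In its range of signal, 17 of 1316 genes had a higher difference. Differences of this size are not equally common at all signals. Among genes within 0.5 log2 units of the mean signal, 13.98% passed 1.5-fold around *SLC39A1*, 9.05% around *SLC39A5* and 6.003% around *SLC39A6*.

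The other importers of the plasma membrane lay within 1.5-fold. *SLC39A10*, whose product is the closest relative of ZIP6 and pairs with it in a complex, had log2 signals of 13.54 with si-NC and 13.63 with si-DRAIC2. Its difference was 0.08, beside −0.61 for *SLC39A6*. *SLC39A8* encodes ZIP8, an importer of zinc and manganese that is a target of NF-κB. Its signal was 10.47 with si-NC and 10.19 with si-DRAIC2, a difference of −0.29. *SLC39A14* encodes ZIP14, which also takes up iron and manganese in liver. It was measured at 13.24 and 13.29, a difference of 0.05.

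The members whose products release zinc from the endoplasmic reticulum, the Golgi or vesicles all lay within 1.5-fold. *SLC39A7* encodes ZIP7, which releases zinc from the endoplasmic reticulum after phosphorylation by CK2, and had signals of 12.11 with si-NC and 11.90 with si-DRAIC2 (difference −0.21). *SLC39A13* encodes ZIP13, whose loss causes a connective tissue disorder. It had 8.32 and 8.50 (0.18). *SLC39A9*, an importer gene of the Golgi, had 12.27 and 12.33 (0.06). *SLC39A11*, of a subfamily also found in bacteria, had 10.24 and 10.27 (0.03). The differences of these 4 genes ran from −0.21 to 0.18. Those of the 6 genes of the plasma membrane ran from −1.13 to 0.85, and the 3 of them within 1.5-fold from −0.29 to 0.08. Since the members were selected with these differences known, nothing is read from this split.

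**Figure D1:**
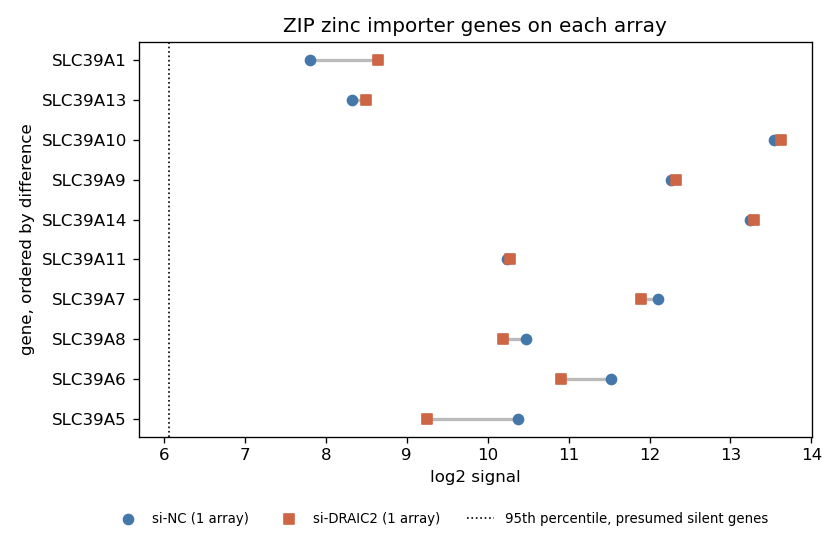
Log2 signals (x axis) of the 10 ZIP genes (y axis, ordered by difference) on the si-NC array (circles) and the si-DRAIC2 array (squares), 1 array each, with no error bars since there are no replicates. *SLC39A5* shifts from 10.38 to 9.25 and *SLC39A1* from 7.80 to 8.65, and all 10 genes lie to the right of the dotted line at 6.06.

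Over the 10 members, 1 was higher and 2 were lower by more than 1.5-fold. Over all named genes, 4.99% were higher and 5.96% lower by this measure, 11.0% in either direction, and 9.20% among the 10479 genes above the silent level, where all 10 members lie. Since the members were selected with these differences known, nothing is read from their share. The median difference of the members was 0.04, that of all named genes −0.01, and the members within 1.5-fold ran from −0.29 to 0.18. The largest subfamily of the ZIP proteins, LIV-1, supplied both lower members. Its 7 genes here (*SLC39A5*, *SLC39A6*, *SLC39A7*, *SLC39A8*, *SLC39A10*, *SLC39A13* and *SLC39A14*) had a median difference of −0.21, with 4 below 0 and 3 above. With *SLC39A4* and *SLC39A12*, the LIV-1 genes outside the selection, 4 of 9 were below 0 and 5 above, and the median was 0.0012. Each member is read by a transcript cluster of its own, and signals of different genes were not ranked, since their probes differ.

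**Figure D2:**
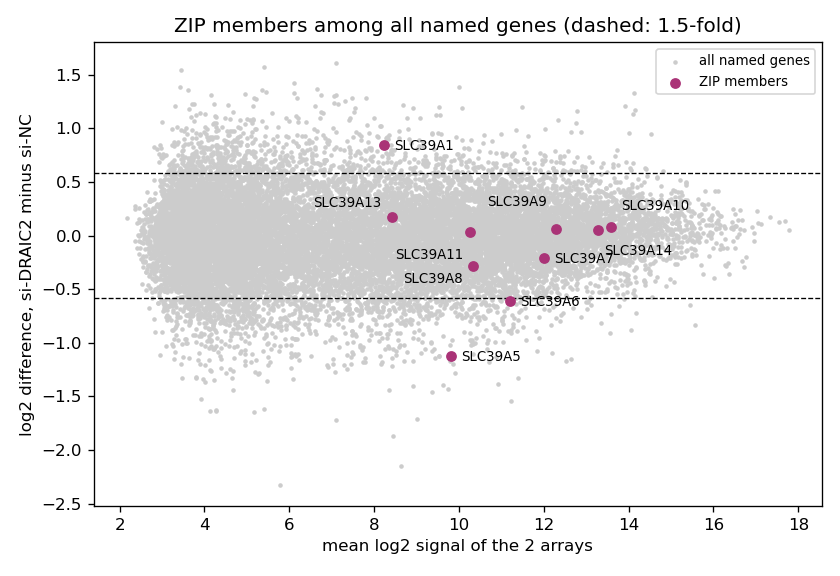
Log2 difference (y axis, si-DRAIC2 minus si-NC) against the mean log2 signal of both arrays (x axis) for all 17687 named genes (grey) and the 10 ZIP genes (purple). *SLC39A5* at −1.13 and *SLC39A1* at 0.85 lie beyond the dashed lines at 1.5-fold, *SLC39A6* at −0.61 lies just beyond, and the other members lie between the lines.

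The 4 ZIP genes outside the selection were measured too. *SLC39A4*, the importer of dietary zinc in the gut, had log2 signals of 11.46 with si-NC and 11.80 with si-DRAIC2, a difference of 0.33. *SLC39A3*, a relative of *SLC39A1*, had 10.04 and 10.25, a difference of 0.21. *SLC39A2* (3.58 and 4.17) and *SLC39A12* (3.34 in each) were not above the silent level. The difference of *SLC39A2*, 0.59, passes 1.5-fold only narrowly. Of all 14 ZIP genes, 10 had a difference above 0 and 4 below, and the median was 0.06. Those above 0 include *SLC39A2* and *SLC39A12*. Over all 17687 named genes, 8592 were above 0 and 9057 below.

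The gene of the zinc sensor was lower on the si-DRAIC2 array. *MTF1* had a log2 signal of 11.59 with si-NC and 10.71 with si-DRAIC2, a difference of −0.89 or 1.85-fold lower, and 1.498% of all named genes had a lower difference. *ZNF658*, a zinc-responsive repressor of *SLC30A5*, *SLC30A10* and the ZNG1 genes, had 6.55 and 5.52, a difference of −1.02 or 2.03-fold lower. Its mean signal of 6.04 is at the silent level. They were the members past 1.5-fold of a list of zinc sensing and handling genes, 2 lower and 0 higher of 8 measured, with a median of −0.06, where 5.96% of all named genes were lower and 4.99% higher. *GPR39*, a receptor for extracellular zinc, had −0.13. *ZNG1A*, *ZNG1B*, *ZNG1C* and *ZNG1E*, which encode near-identical zinc chaperones whose probes may not tell them apart, ran from 0.01 to 0.16.

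Genes that MTF1 is known to control are given beside it. *MT2A* had log2 signals of 12.49 with si-NC and 12.47 with si-DRAIC2 (difference −0.02), and *MT1X* 10.66 and 10.59 (−0.07). *SLC30A1*, the zinc exporter gene of the plasma membrane, had 10.45 and 10.66 (0.20). *SLC39A10*, which MTF1 represses in mouse cells, had the difference of 0.08 given above. None of these 4 genes, all above the silent level, passed 1.5-fold. Only 9.20% of all named genes above that level did, so nothing is read from this count beside the difference of *MTF1*. The 4 genes leave out the other metallothionein genes. Of 10 measured metallothionein genes, 1 was higher and none lower (10% past 1.5-fold, beside 11.0% of all named genes), and the median was 0.06. The higher one was *MT1B*, with 10.63 and 11.41 (0.77). Human metallothionein genes are near-identical in sequence, so a signal may hold RNA of several of them. *MT1A* is unnamed in the annotation.

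The 6 ZnT exporters above the silent level lay within 1.5-fold. Since only 9.20% of all named genes above that level passed it, nothing is read from this. *SLC30A5* and *SLC30A6*, whose products load zinc into secreted enzymes as a pair, had differences of 0.15 and 0.04. *SLC30A7*, an exporter gene of the Golgi, had log2 signals of 12.22 with si-NC and 11.83 with si-DRAIC2 (−0.40), and *SLC30A9*, of mitochondria, 13.40 and 13.64 (0.24). Of the 10 genes, 1 was higher and 1 lower (20% past 1.5-fold, beside 11.0% of all named genes), and the median was 0.13. *SLC30A3*, of synaptic vesicles, had 5.54 and 6.26 (0.72), and the manganese exporter gene *SLC30A10* had 3.999 and 3.314 (−0.69). Neither had a mean signal above the silent level.

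**Figure D3:**
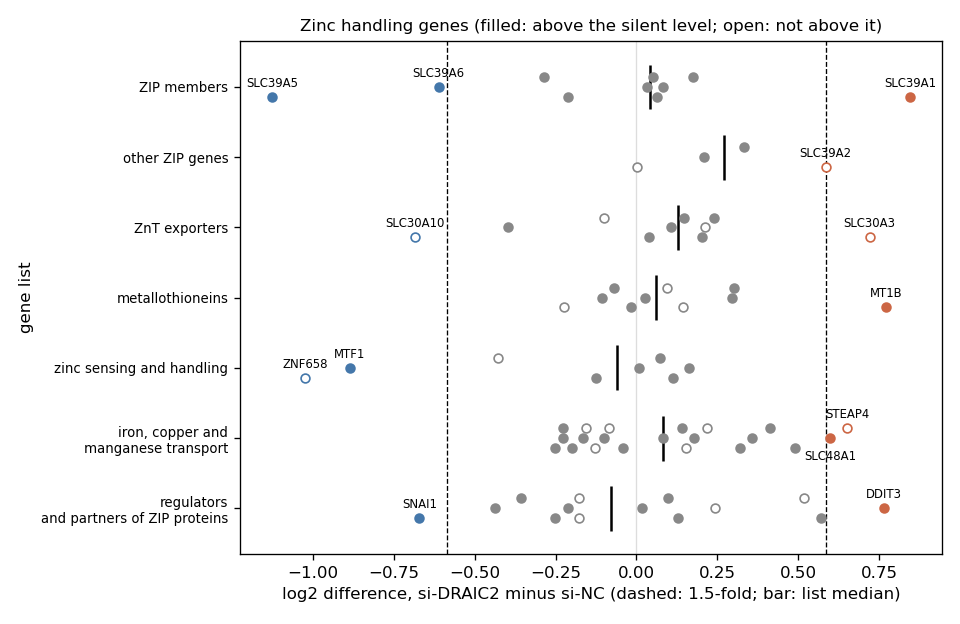
Log2 difference (x axis, si-DRAIC2 minus si-NC) of the genes of each list (y axis), 1 point per gene, with the list median as a bar and 1.5-fold as dashed lines. Points past 1.5-fold are named and coloured (orange higher, blue lower), and open points are genes not above the silent level. *MTF1* at −0.89 is lower and filled, and the ZnT genes past the lines, at 0.72 and −0.69, are open.

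ZIP8 and ZIP14 share iron and manganese with other carriers. Of 21 measured genes of iron, copper and manganese transport, 2 were higher, none was lower, and the median was 0.08. That is 9.52% past 1.5-fold, beside 11.0% of all named genes. *SLC48A1*, a heme transporter gene, had log2 signals of 12.41 with si-NC and 13.01 with si-DRAIC2 (difference 0.60 or 1.52-fold). This lies close to the threshold, and after a loess on signal it was 0.579, within 1.5-fold. *STEAP4*, a metalloreductase gene, had 0.65 with a mean signal below the silent level. *SLC11A2*, which encodes the iron importer DMT1, had 0.36, the iron exporter gene *SLC40A1* 0.41 and the transferrin receptor gene *TFRC* 0.14.

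Of 14 measured genes known as regulators or partners of ZIP proteins, 1 was higher and 1 lower, and the median was −0.08. That is 14.3% past 1.5-fold, beside 11.0% of all named genes. *SNAI1*, whose product acts downstream of Zip6 in zebrafish embryos, had log2 signals of 7.32 with si-NC and 6.65 with si-DRAIC2, a difference of −0.67 or 1.59-fold lower. With 32 added to the linear signals the difference was −0.53, within 1.5-fold. *STAT3*, which induces that zebrafish gene, had 12.57 and 12.67 (0.10). *NCAM1*, which binds the complex of ZIP6 and ZIP10 in mouse cells, had 11.67 and 11.31 (−0.36). *DDIT3*, a factor of endoplasmic reticulum stress, was higher with 9.59 and 10.36 (0.77). The genes of the catalytic subunits of CK2, the kinase that acts on ZIP7, had differences of 0.13 (*CSNK2A1*) and −0.25 (*CSNK2A2*). *PRNP*, the prion gene, which is related to LIV-1 importers by descent, had −0.21. *CSNK2B* and *HNF4A* were not analysed here.

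**Figure D4:**
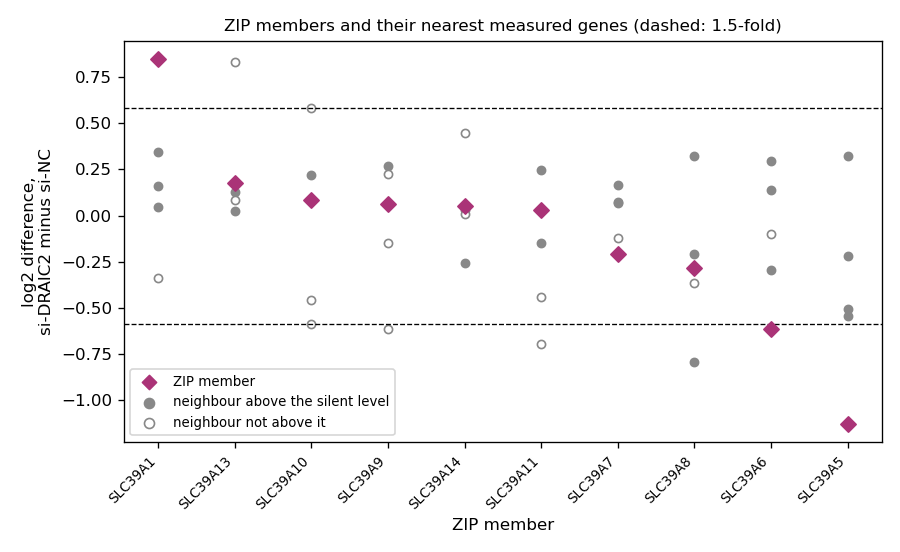
Log2 difference (y axis, si-DRAIC2 minus si-NC) of each ZIP gene (diamonds; x axis) and its nearest measured genes, 2 on each side (circles, open where not above the silent level). *SLC39A1* at 0.85, *SLC39A6* at −0.61, *SLC39A5* at −1.13 and *SLC39A7* at −0.21 lie outside the range of their neighbours. Since the members were selected with their differences known, nothing is read from this. The neighbour of *SLC39A8* at −0.79 is *NFKB1*.

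The genes next to each member in the RefSeq order were not used to select the members. Beside *SLC39A5*, *NABP2* on one side had a difference of −0.54 and *ANKRD52* on the other 0.32, with *RNF41* at −0.22 and *COQ10A* at −0.50 farther out. Beside *SLC39A6*, *RPRD1A* had 0.29 and *ELP2* 0.14. Beside *SLC39A1*, *CRTC2* had 0.05 and *CREB3L4*, which lies below the silent level, −0.34. None of the 12 neighbours of these 3 members passed 1.5-fold. Since only 11.0% of all named genes passed it, nothing is read from this count. Of all 40 neighbours, 1 was higher and 4 were lower, with a median of 0.03, beside 4.99% higher and 5.96% lower of all named genes. Of the 24 neighbours above the silent level 1 was lower and 0 were higher, where 9.20% of named genes passed in either direction. The lower one was *NFKB1*, the gene of an NF-κB subunit, next to *SLC39A8*. It had log2 signals of 10.65 with si-NC and 9.86 with si-DRAIC2 (−0.79). The others past 1.5-fold were *PLEKHD1*, *TMEFF2* and *SSTR2* (lower) and *SPI1* (higher), none above the silent level. *SLC39A1* overlaps *CREB3L4* and *SLC39A5* overlaps *ANKRD52* in RefSeq. *ANKRD52* lies above the silent level and *CREB3L4* does not.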

How the data were processed

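Total RNA of VMRC-LCD cells was hybridized to Human Clariom S arrays, 1 per condition. The deposited log2 signals are SST-RMA values from the Transcriptome Analysis Console, for which the authors applied background correction, quantile normalization and probe summarization. Sources used here name neither software versions nor an annotation build. Such normalization hides a change shared by all transcripts.

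The deposited values were used unscaled. Of 21448 transcript clusters, 17709 had a gene name in the platform annotation, all with the RefSeq (GRCh38.p14) symbol of the same gene identifier, giving 17687 genes (log2 mean per symbol). Past 1.5-fold refers to linear signal. No test was made with 1 array per condition, and the array count limits precision. The silent level is the 95th percentile of the mean signal of beta-defensins, keratin-associated proteins and olfactory, vomeronasal, taste and trace amine receptors. Members and lists were chosen with earlier results of these data known. All members were named, with other listed genes or neighbours past 1.5-fold and core genes of each list. Of the listed genes, *CSNK2A1*, *CSNK2A2*, *GPR39*, *IL6R* and the ZNG1 genes are also named, which was decided after their values were seen. Counting was tested on simulated data with less spread than these arrays and shifts well past the threshold. That checks the counting code, not how reliable a call is on these arrays. Protein features were not analysed here. Promoters are RefSeq windows, of which those with most matches are shown. Alternatives were median centring, a loess (span 0.3), 32 added to linear signals, quantile normalization, a 2-fold threshold and a filter at the silent level. Python 3.11.15, numpy 2.4.6, pandas 2.3.3, statsmodels 0.14.6 and matplotlib 3.10.9 were used.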

Additional observations from a re-analysis of the deposited data

How the results depend on the processing

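No replicate check exists, and no paired analysis was possible because each condition has 1 array. *SLC39A1* stayed higher, and *SLC39A5* and *SLC39A6* lower, past 1.5-fold under median centring, loess, an added 32 and quantile normalization. Their differences ran from 0.76 to 0.90, from −1.13 to −1.08 and from −0.611 to −0.585, the last at the threshold of 0.585. The filter at the silent level could not change these calls, because every member lies above that level and the filter leaves the differences unchanged. At 2-fold, 1 member passed (*SLC39A5*). None of the 7 other members passed under any of these settings or changed sign. Each member has 1 transcript cluster, so the comparison of rows per symbol gave no value.

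Of the 67 listed genes outside the members, 10 passed 1.5-fold, which is 14.9%, beside 11.0% of all named genes. With 32 added, 5 passed (*DDIT3*, *MT1B*, *MTF1*, *SLC48A1* and *ZNF658*), above the silent level also 5 (*SNAI1* in place of *ZNF658*), and at 2-fold 1 (*ZNF658*). *SLC48A1* was within 1.5-fold after loess (0.579) and *SLC39A2* after quantile normalization (0.584). The listed gene *IL6R*, named here after its values were seen, was past 1.5-fold in both settings (0.612 and 0.615). Over all named genes, 1937 passed 1.5-fold, 752 with 32 added, 964 above the silent level and 261 at 2-fold. More genes were lower than higher as deposited (1055 and 882), after median centring (1010 and 935) and with 32 added (426 and 326). The same held above the silent level (542 and 422) and at 2-fold (163 and 98). It did not hold after loess (963 and 971) or quantile normalization (944 and 991). The cause was not tested.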
